A study of Penaeus vannamei with 11 samples.

Results

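Hemocytes of male Pacific white shrimp (Penaeus vannamei) were compared after stimulation with Vibrio parahaemolyticus and in controls, by RNA sequencing across all genes. The comparison holds 5 of the 11 libraries of the series: 3 from Vibrio males, numbered 1 to 3, and 2 from control males, numbered 2 and 3. They were chosen by the labels of sex and agent. The other 6 libraries come from females of both conditions and are used here for the estimate of spread and for the test of whether an effect differed between the sexes. All 5 male libraries were made from Trizol-extracted total RNA of hemocytes, which were pelleted from hemolymph mixed with chilled anticoagulant. The labels give one treatment word, immune, to both groups. Neither dose, route and time after the bacterium, nor what the control animals received, nor age and strain, is given in the sources used here. Nor do they say whether a replicate was 1 animal or a pool, so a p-value here measures the spread between these samples, which may be technical. The title of the series asks how sex relates to disease resistance, and the comparison asks what differed in male hemocytes after the bacterium.

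Vibrio parahaemolyticus is a marine bacterium, and strains of it cause acute hepatopancreatic necrosis disease in farmed shrimp. Hemocytes are the circulating immune cells of crustaceans. They store and release antimicrobial peptides such as penaeidins, crustins and anti-lipopolysaccharide factors, carry the prophenoloxidase cascade that makes melanin, clot hemolymph through transglutaminase, and take up microbes. Toll and IMD signalling, through NF-kappa-B factors, governs many antimicrobial genes in arthropods.

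Depth ran from 49451523 to 51449309 counts per library in Vibrio males and from 39733829 to 49118915 in control males. Between 13953 and 14271 genes had a count in Vibrio males, against 13469 in control male 2 and 15138 in control male 3. Among low counts, from 1 to 20, 61.3 to 64.6% were even in Vibrio males and 64.8 to 65.6% in control males, so a count is not 1 independent fragment. No library repeated another: the chi-square of any pair within a group was at least 99.7 for each degree of freedom. The label of cell type held: markers of hemocytes, such as penaeidins, crustins, transglutaminases and prophenoloxidases, summed to 38260.1, 32810.5 and 31486 FPKM in Vibrio males, against 26353 and 26705 FPKM in control males. Markers of hepatopancreas, the digestive gland, summed to 302, 535 and 516 FPKM in Vibrio males, against 557 and 1656 FPKM in control males. A level below is a CPM value, counts scaled by TMM library sizes, unless FPKM, which also divides by gene length, is named.

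No gene passed the test between Vibrio and control males. The quasi-likelihood test of edgeR called 0 of 14295 genes (0%) after Benjamini-Hochberg adjustment at 0.05, and no adjusted p lay below 0.933. At an unadjusted p under 0.05 there were 345 genes (2.41%), of which 114 (0.797%) stood higher and 231 (1.62%) stood lower with Vibrio. DESeq2, a second count test, called 11 of 14183 genes (0.0776%). The median log2 fold change over all genes tested was -0.03, with 6790 genes (47.5%) above 0 and 7452 (52.1%) below. In 1902 genes (13.3%) all 3 Vibrio males stood above both control males, and in 1638 genes (11.5%) all 3 stood below. Since no gene passed in edgeR, the differences below are given as values with their spread.

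**Figure D1:**
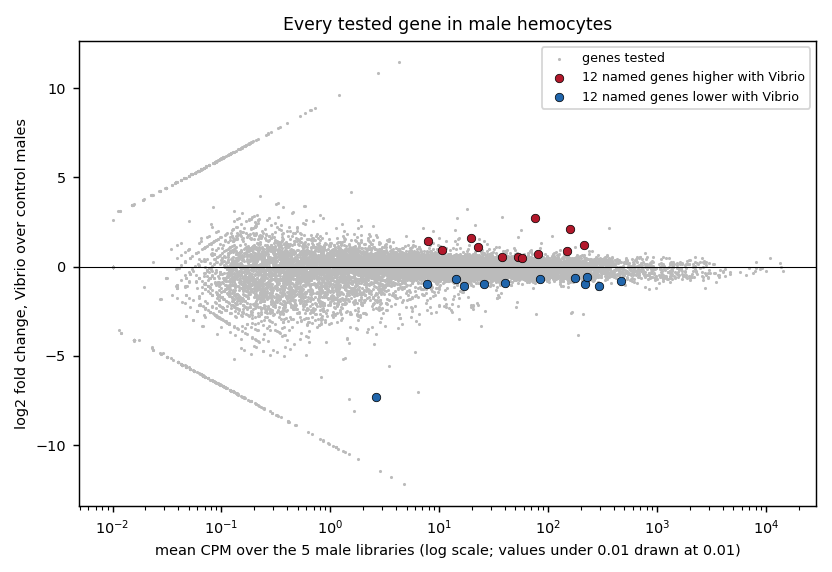
Each grey point is a tested gene, placed by its mean CPM over the 5 male libraries (log scale) and its edgeR log2 fold change, Vibrio over control males. The 24 named genes, 12 higher (red) and 12 lower (blue), are marked by colour, and the genes of very large fold change at low CPM include those with no count in 1 of the groups.

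The 2 control males differed from each other more than the Vibrio males did. Over 8058 genes with a mean of at least 5 CPM, the median absolute log2 difference was 0.20 to 0.23 between pairs of Vibrio males, against 0.36 between the control males. Control male 3 lay about as near to the Vibrio males, at 0.18 to 0.26, as they lay to each other. Control male 2 lay farther from them, at 0.35 to 0.42, and was the library farthest from the median in 3510 of those genes (43.6%). The Vibrio males lay between the 2 controls, below control male 2 and above control male 3, in 609 genes (7.56%), and the other way round in 377 genes (4.68%). With a single other control male for each control, no test tells which of the controls is the usual one.

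**Figure D2:**
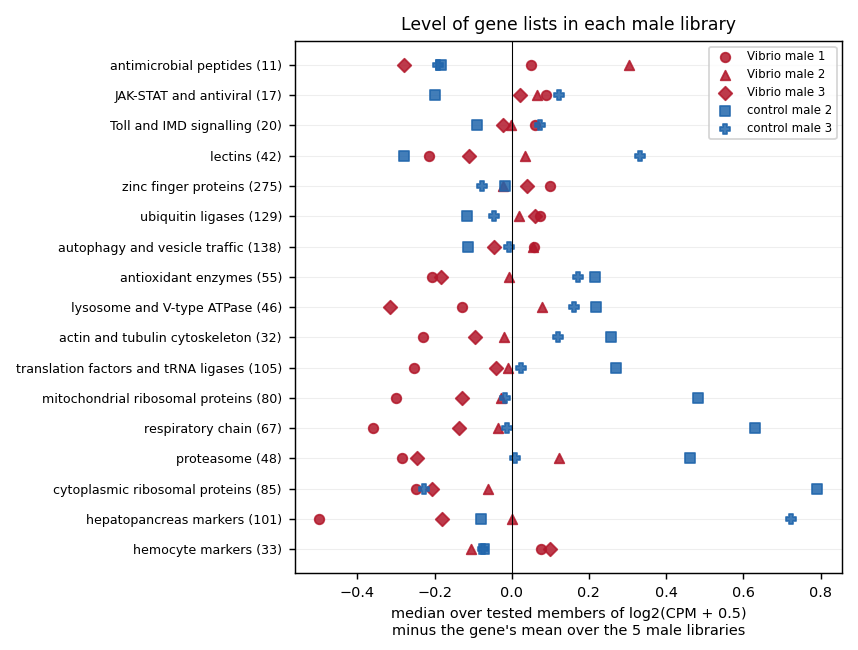
Each point is 1 male library and shows, for a gene list, the median over its tested members of log2(CPM + 0.5) minus the mean of the gene over the 5 male libraries; the number of tested members is in brackets, Vibrio males are red and control males blue. Control male 2 stood at 0.79 for cytoplasmic ribosomal proteins and 0.63 for the respiratory chain, and control male 3 stood at 0.72 for hepatopancreas markers.

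Immune effectors were among the most abundant transcripts of male hemocytes, and no member of their lists passed the test. The most abundant transcript per length was a putative antimicrobial peptide (LOC113801825, 1 of 2 genes of that name), with 18814, 18510.1 and 12557 FPKM in Vibrio males, against 12660.5 and 13656 FPKM in control males. Penaeidin-3a-like (LOC113808997), an antimicrobial peptide of penaeid hemocytes, had 13796, 13434 and 9374 CPM in Vibrio males, against 8434 and 8841 CPM in control males. All 3 Vibrio males stood above both control males for it (log2 fold change 0.50, SE 0.34), with an unadjusted p of 0.177. The anti-lipopolysaccharide factor-like gene LOC113800363 (7 genes share the name), whose product binds bacterial lipopolysaccharide, averaged 11181 ± 3113 FPKM in Vibrio males and 11911 ± 2639 FPKM in control males (SD, n = 3 and 2). Its log2 fold change was -0.22, and 0.18 without control male 2, with a lowest value of -0.52 when 1 library was left out. Its partial relative LOC113810045 had 498, 517 and 604 CPM in Vibrio males, against 1769 and 814 CPM in control males. That gene stood lower in all 3 Vibrio males (log2 fold change -1.26, SE 0.53, unadjusted p = 0.0398), with control male 2 farthest above. Of 11 antimicrobial peptide genes tested, out of 14 in the table, 7 were higher and 4 lower, with a median log2 fold change of 0.28 beside -0.03 over all genes. Summed over the 14 genes, the level was 53189, 56635 and 39513 FPKM in Vibrio males, against 40244 and 41012 FPKM in control males: 2 Vibrio males were high and the other lay below both controls.

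Among other effectors, no clear separation of the groups was found for most. Lysozyme C-like (LOC113802295), which cuts bacterial cell walls, had 829.7, 730.3 and 738 CPM in Vibrio males, against 1898 and 1024 CPM in control males; all 3 Vibrio males were lower (log2 fold change -0.93, SE 0.60, unadjusted p = 0.153). Prophenoloxidase-1 (LOC113827090), the zymogen of the melanin-forming enzyme, had 2039, 1379 and 2646 CPM in Vibrio males, against 1705 and 1885 CPM in control males, and the groups overlapped. Of 29 prophenoloxidase and clip-domain protease genes tested, 17 were higher and 11 lower (median 0.08), and 1 lay above and 0 below both controls, against 13.3% and 11.5% of all genes. The hemocyte transglutaminase-like gene LOC113823945 (4 genes share the name), a clotting enzyme, had 2406, 1180.1 and 2247 CPM in Vibrio males, against 2474 and 1083 CPM in control males. High and low libraries were found in both groups for it, and its log2 fold change was 0.13, or -0.34 without control male 3. Kunitz-type serine protease inhibitor HCRG1-like (LOC113806311) averaged 4597 ± 2504 FPKM in Vibrio males and 9443 ± 3970.5 FPKM in control males (SD, n = 3 and 2). The most abundant actin gene (LOC113813020) had 12908, 14138 and 12678 CPM in Vibrio males, against 10153 and 21451 CPM in control males, and control male 3 was the high library (log2 fold change -0.26, or 0.39 without it). The other genes among the 8 most abundant were venom toxin OcyC11-like (LOC113809352), late cornified envelope-like proline-rich protein 1 (LOC113802179), ovoinhibitor-like (LOC113803873), a protease inhibitor, and profilin-like (LOC113830566), an actin-binding protein. Their mean levels were 10255, 9374, 9111 and 7702 FPKM over the 5 libraries, with log2 fold changes between -0.14 and -0.05. Without control male 2 these were 0.62, 0.41, -0.06 and 0.02. The lowest values with 1 library left out were -0.88, -0.40, -0.19 and -0.28.

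Genes of recognition and signalling were mixed in direction. Spaetzle (LOC113810575), the ligand of Toll, had 239, 377 and 345 CPM in Vibrio males, against 263 and 670.0 CPM in control males, with control male 3 highest (log2 fold change -0.54, or 0.29 without it). Nuclear factor NF-kappa-B p105 subunit-like (LOC113806131), named for the transcription factor downstream of these pathways, had 711, 816 and 795 CPM in Vibrio males, against 891 and 1088 CPM in control males, lower in all 3 Vibrio males (log2 fold change -0.35, SE 0.19, unadjusted p = 0.0936). Spaetzle 3-like (LOC113807211) ran the other way, with 12.1, 6.34 and 6.36 CPM in Vibrio males, against 3.15 and 4.43 CPM in control males (log2 fold change 1.12, SE 0.92, unadjusted p = 0.248). Toll-like receptor Tollo (LOC113808109, 3 genes of that name) was low, with 1.66, 0.878 and 2.18 CPM in Vibrio males, against 0.463 and 0.732 CPM in control males (log2 fold change 1.39, SE 0.70, unadjusted p = 0.0745). NF-kappa-B p105 and spaetzle 3 were named after their values were seen, as were the 4 higher members of the next list. Over the 20 Toll and IMD genes tested, 10 were higher and 10 lower, with a median of 0.01. Of these, 2 of 20 (10%) lay above both controls, against 13.3% of all genes, and 4 of 20 (20%) below, against 11.5%.

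In the JAK-STAT and antiviral list, 5 of 17 members (29.4%) had all 3 Vibrio males above both controls, against 13.3% of all genes, and 1 of 17 (5.88%) had all 3 below, against 11.5%. The member below, and the one of smallest p in the list, was protein argonaute-3-like (LOC113817401), a small-RNA-binding protein, with 0 counts in all Vibrio males, against 0.405 and 6.14 CPM in control males (unadjusted p = 0.0342). With 3 counts over the Vibrio males as the limit it was at least 170.0-fold lower there, and at least 21.1-fold against control male 2 alone. In females the same gene had 0, 0 and 3.77 CPM with Vibrio and 0 in all 3 controls. The 5 above included the kinase hopscotch-like (LOC113812472), the JAK of flies, with 11.5, 11.6 and 11.2 CPM in Vibrio males, against 8.91 and 8.15 CPM in control males (log2 fold change 0.42, SE 0.35). Endoribonuclease Dicer-like (LOC113800785), which cuts double-stranded RNA in RNA interference, had 17.2, 15.1 and 14 CPM in Vibrio males, against 11.9 and 11.4 CPM in control males (log2 fold change 0.40, SE 0.35). Argonaute 1 isoform B (LOC113821506), a small-RNA-binding protein, had 9.96, 7.16 and 13.5 CPM in Vibrio males, against 5.35 and 6.59 CPM in control males (log2 fold change 0.77, SE 0.63). These gaps are small beside the pooled error, with unadjusted p of 0.255, 0.276 and 0.248. SID1 transmembrane family member 1-like (LOC113808226), named for a double-stranded RNA channel of worms, had 23.6, 23.1 and 18.1 CPM in Vibrio males, against 12.8 and 17.5 CPM in control males (log2 fold change 0.51, SE 0.50). The median of the list was 0.05, and it was -0.06 without control male 2 and 0.33 without control male 3.

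Among lectins, 24 of 42 tested were lower and 16 higher (median -0.67); the median was -0.69 without control male 2 and 0.67 without control male 3. Ficolin-1-like (LOC113813554, 5 genes of that name), a sugar-binding recognition protein, had 3.55, 2.13 and 3.25 CPM in Vibrio males, against 8.31 and 5.17 CPM in control males (log2 fold change -1.18, SE 0.38, unadjusted p = 0.0108). Outside the list, perlucin-like protein (LOC113829653, 9 genes of that name), a C-type lectin-like protein named after a mollusc shell protein, had 0.113, 0 and 0 CPM in Vibrio males, against 1.97 and 11 CPM in control males, so that the counts of all Vibrio males were near 0 and control male 3 was the highest (log2 fold change -7.32, SE 1.61, unadjusted p = 0.00103, DESeq2 adjusted p = 0.00115).

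Beyond the immune lists, the genes with the smallest unadjusted p and no overlap between groups were named in each direction, 12 from 725 higher and 12 from 794 lower that had a descriptive name and at least 5 FPKM. Non-overlap and a small p are how they were chosen, so the values describe them. Their edgeR adjusted p was 0.933 for each.

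Among higher genes p was smallest for eukaryotic translation initiation factor 4 gamma 1-like (LOC113823483, a name shared by 2 genes), the scaffold of the cap-binding complex, with 28.8, 18.3 and 33 CPM in Vibrio males, against 10.6 and 7.11 CPM in control males (log2 fold change 1.59, SE 0.35, unadjusted p = 0.00107). DESeq2 called it, with an adjusted p of 0.024. Sodium-dependent nutrient amino acid transporter 1-like (LOC113813588, 4 genes of that name), an importer of amino acids, had 304, 93.9 and 291 CPM in Vibrio males, against 69.9 and 38.5 CPM in control males. Vibrio male 2 was nearest to the controls and the others were far above them (log2 fold change 2.08, SE 0.66, unadjusted p = 0.0105). The same library was low for phospholipase D alpha 1-like (LOC113805490), a lipid-cleaving enzyme, with 223, 18.7 and 101 CPM in Vibrio males, against 18.1 and 17 CPM in control males (log2 fold change 2.70, SE 0.94, unadjusted p = 0.0165). Without Vibrio male 1 the log2 fold change was 1.77.

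Both genes named DNA damage-inducible transcript 4-like protein stood higher; in mammals DDIT4 is a stress-induced inhibitor of mTORC1, the growth kinase complex. One of them (LOC113815721) had 274, 249 and 299 CPM in Vibrio males, against 119.9 and 119 CPM in control males (log2 fold change 1.20, SE 0.38, unadjusted p = 0.00957). The other (LOC113801287) had 103, 74.4 and 106 CPM in Vibrio males, against 58.7 and 58.3 CPM in control males (log2 fold change 0.69, SE 0.22, unadjusted p = 0.0117). In each the 2 control males lay close together and all 3 Vibrio males above them.

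Integrin beta-PS-like (LOC113804348, 5 genes of that name), a cell adhesion receptor subunit, had 13.2, 7.49 and 10.8 CPM in Vibrio males, against 3.33 and 4.43 CPM in control males (log2 fold change 1.43, SE 0.37, unadjusted p = 0.00311). Protein yippee-like 2 (LOC113808991), a putative zinc-binding protein, had 31.6, 24.7 and 30.9 CPM in Vibrio males, against 15.5 and 11.7 CPM in control males (log2 fold change 1.10, SE 0.33, unadjusted p = 0.00715). Dosage compensation regulator (LOC113802200), a name also used for maleless, an RNA helicase that acts on the male X chromosome of flies, had 192, 170.1 and 183 CPM in Vibrio males, against 98.1 and 96.7 CPM in control males (log2 fold change 0.90, SE 0.32, unadjusted p = 0.0179). The E3 ubiquitin-protein ligase hyd-like (LOC113821978, 3 genes of that name) had 40, 36.8 and 51.7 CPM in Vibrio males, against 30.4 and 28.5 CPM in control males (log2 fold change 0.54, SE 0.20, unadjusted p = 0.0239). The other 3 genes were as follows. Exonuclease 3'-5' domain-containing protein 2-like (LOC113829633) had a log2 fold change of 0.47, SE 0.16, the leucine-rich repeat and calponin-like protein LOC113820355 0.56, SE 0.20 and Golgi-associated plant pathogenesis-related protein 1-like (LOC113812526) 0.93, SE 0.34.

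**Figure D3:**
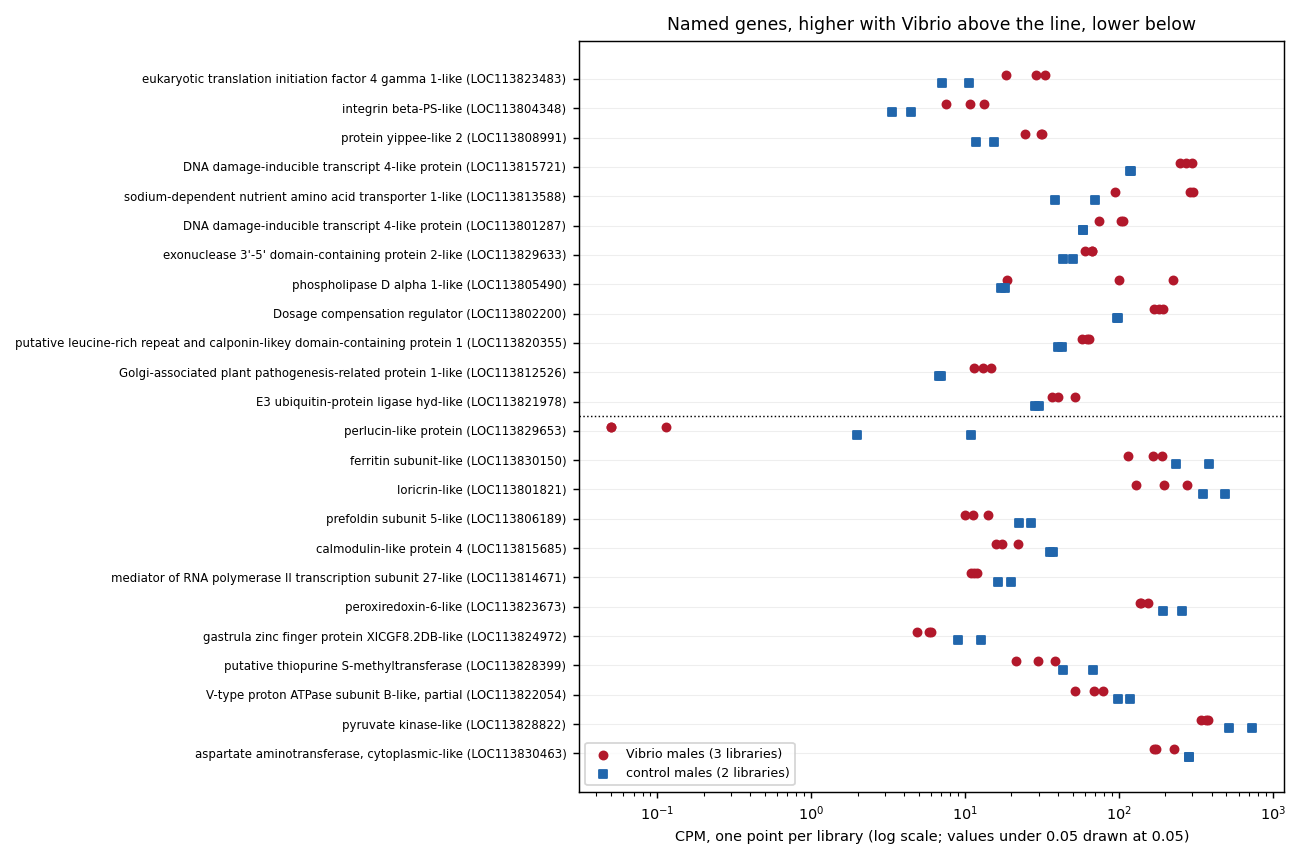
Each row is a named gene with 1 point per male library on a log CPM axis, red circles for the 3 Vibrio males and blue squares for the 2 control males; the 12 genes above the dotted line were higher with Vibrio and the 12 below it lower. The control males lie at 119.9 and 119 CPM for LOC113815721, below all Vibrio males, and 2 Vibrio males have no counts for perlucin-like protein.

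After perlucin-like protein, the lower gene of smallest p encoded a ferritin. Ferritin subunit-like (LOC113830150), an iron-storage protein, had 167, 191 and 115 CPM in Vibrio males, against 384 and 235 CPM in control males (log2 fold change -0.97, SE 0.28, unadjusted p = 0.00532). Ferritin-like (LOC113821440), the most abundant of the iron genes, had 320.2, 597 and 387 CPM in Vibrio males, against 684 and 801 CPM in control males, also lower in all 3 Vibrio males (log2 fold change -0.77, SE 0.48, unadjusted p = 0.139). Peroxiredoxin-6-like (LOC113823673), a peroxide-reducing enzyme, had 139, 137 and 155 CPM in Vibrio males, against 258 and 193 CPM in control males (log2 fold change -0.65, SE 0.21, unadjusted p = 0.0103). The other gene of that name (LOC113823675), named after its values were seen, had 72.3, 60.4 and 35.1 CPM in Vibrio males, against 126 and 87.4 CPM in control males (log2 fold change -0.93, SE 0.41, unadjusted p = 0.0448). Pyruvate kinase-like (LOC113828822; 2 loci carry this name), the last enzyme of glycolysis, had 341, 366 and 381 CPM in Vibrio males, against 737 and 518 CPM in control males (log2 fold change -0.79, SE 0.27, unadjusted p = 0.0143). Aspartate aminotransferase (LOC113830463), which links amino acids with the citrate cycle, had 168, 227 and 175 CPM in Vibrio males, against 284 and 284 CPM in control males (log2 fold change -0.58, SE 0.20, unadjusted p = 0.0144). The controls stood equal for it, and all 3 Vibrio males below.

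V-type proton ATPase subunit B-like, partial (LOC113822054), part of the proton pump of lysosomes, had 68.8, 79.2 and 51.9 CPM in Vibrio males, against 118 and 98.1 CPM in control males (log2 fold change -0.70, SE 0.23, unadjusted p = 0.0135). A second subunit B gene (LOC113821152), also named after its values were seen, had 61.8, 71.2 and 49 CPM in Vibrio males, against 97.1 and 86.5 CPM in control males (log2 fold change -0.60, SE 0.24, unadjusted p = 0.0343). The 2 may be copies that share reads, which the deposited counts do not resolve. Prefoldin subunit 5-like (LOC113806189), a chaperone for actin and tubulin, had 11.3, 10 and 14.2 CPM in Vibrio males, against 26.9 and 22.5 CPM in control males (log2 fold change -1.06, SE 0.32, unadjusted p = 0.00768). Mediator subunit 27-like (LOC113814671) had 11, 12 and 11.4 CPM in Vibrio males, against 20 and 16.3 CPM in control males (log2 fold change -0.67, SE 0.21, unadjusted p = 0.0101). Calmodulin-like protein 4 (LOC113815685), a calcium-binding protein, had 15.9, 22.1 and 17.4 CPM in Vibrio males, against 35.9 and 37 CPM in control males (log2 fold change -0.98, SE 0.30, unadjusted p = 0.00847). Loricrin-like (LOC113801821) had a log2 fold change of -1.07, SE 0.32, thiopurine S-methyltransferase (LOC113828399) -0.90, SE 0.30 and the gastrula zinc finger protein LOC113824972 -0.97, SE 0.31.

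Gene lists were then described by how many members lay outside the other group. Lists of mitochondria, translation, redox defence, muscle and the cytoskeleton had the largest shares of members, among lists of 10 or more, with all 3 Vibrio males below both controls, against 11.5% of all genes. For mitochondrial ribosomal proteins, which make the proteins encoded by mitochondrial DNA, the count was 34 of 80 (42.5%), with 75 lower in all and a median log2 fold change of -0.45. For the respiratory chain, which makes ATP, it was 24 of 67 (35.8%, median -0.53). For antioxidant enzymes it was 21 of 55 (38.2%, median -0.39), for actin and tubulin genes 11 of 32 (34.4%, median -0.42) and for translation factors and tRNA ligases 31 of 105 (29.5%, median -0.33). The lysosome and V-type ATPase list had 11 of 46 (23.9%, median -0.32) and DNA replication 12 of 48 (25%, median -0.28). Of the muscle markers, a list for another tissue, 14 of 37 (37.8%) lay below both controls. No member of these lists passed the edgeR test; DESeq2 called 1, eukaryotic translation initiation factor 4 gamma 1-like. The most abundant members were close to 0 in 3 of the lists: log2 fold changes were 0.05 for 39S ribosomal protein L53 (LOC113807883), -0.02 for ATP synthase subunit beta (LOC113829387) and -0.02 for elongation factor 1-alpha-like (LOC113820946). The most abundant antioxidant gene, selenium-dependent glutathione peroxidase (LOC113819894), had 795, 987 and 864 CPM in Vibrio males, against 1456 and 1192 CPM in control males (log2 fold change -0.59, SE 0.32, unadjusted p = 0.0992).

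In several members control male 2 stood far above every other library. The genes of cytochrome c oxidase, ATP synthase, initiation factor 2 and tubulin below were named after their values were seen. Cytochrome c oxidase subunit 5A (LOC113800033), of complex IV, had 145, 194 and 198 CPM in Vibrio males, against 391 and 228 CPM in control males (log2 fold change -0.79, SE 0.35, unadjusted p = 0.0504). ATP synthase subunit O (LOC113812602) had 181, 236 and 205 CPM in Vibrio males, against 438 and 259 CPM in control males (log2 fold change -0.75, SE 0.38, unadjusted p = 0.0755). Control male 3 was the nearer of the controls to the Vibrio males in both. Among mitochondrial ribosomal genes, 39S ribosomal protein L48 (LOC113800852) had 5.8, 6.12 and 6.53 CPM in Vibrio males, against 11.8 and 8.67 CPM in control males (log2 fold change -0.74, SE 0.29, unadjusted p = 0.0294). Translation initiation factor 2 subunit 1-like (LOC113822938), part of the complex that brings the first tRNA to the ribosome, had 76.8, 115 and 92.8 CPM in Vibrio males, against 260.2 and 135 CPM in control males (log2 fold change -1.06, SE 0.44, unadjusted p = 0.0368). Succinate dehydrogenase cytochrome b small subunit (LOC113829948), of complex II, had 5.92, 10.2 and 7.17 CPM in Vibrio males, against 19.7 and 15.3 CPM in control males (log2 fold change -1.17, SE 0.40, unadjusted p = 0.0149). Here both controls stood clear of the Vibrio males. Tubulin beta-1 chain (LOC113816095), a microtubule subunit, did likewise with 1800.4, 3039 and 3096 CPM in Vibrio males, against 5225 and 4253 CPM in control males (log2 fold change -0.84, SE 0.40, unadjusted p = 0.0618). Arp2/3 complex subunit 5-C-like (LOC113826245), of the actin-branching complex, had 137, 142 and 149 CPM in Vibrio males, against 225 and 167 CPM in control males (log2 fold change -0.46, SE 0.20, unadjusted p = 0.0431). For it control male 3 was the nearer of the controls to the Vibrio males, and the log2 fold change was -0.23 without control male 2.

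**Figure D4:**
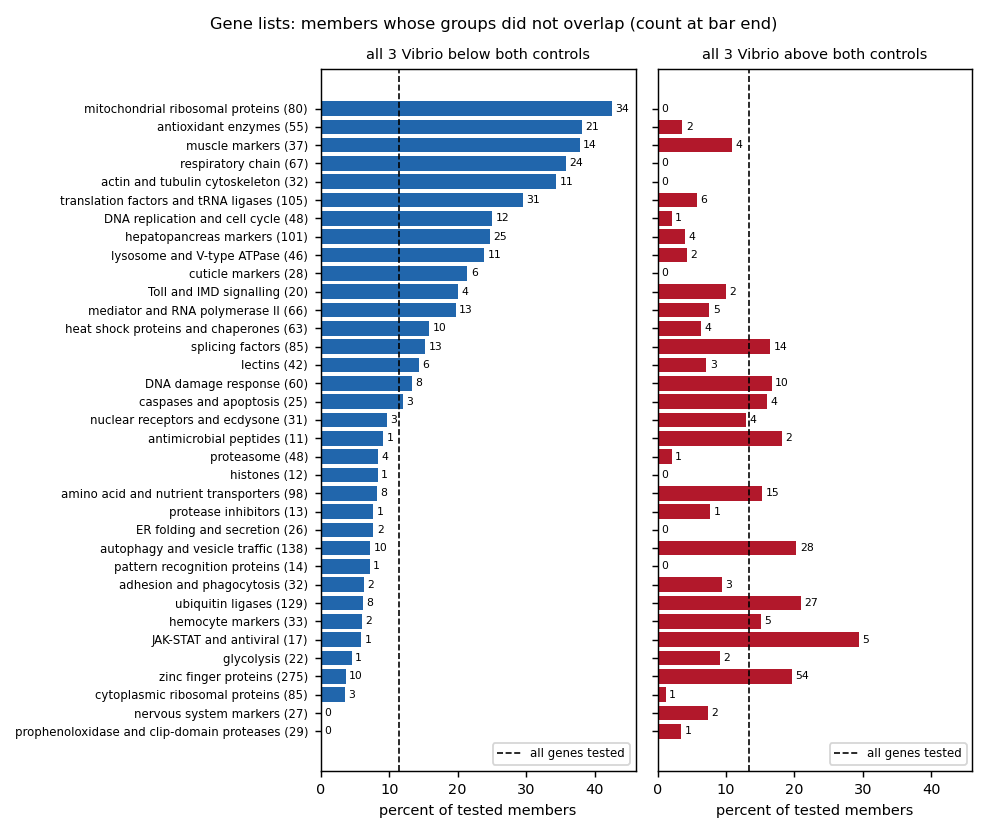
Bars give, for each gene list with at least 10 tested members (number in brackets), the percent of members with all 3 Vibrio males below both control males (left) and above them (right); bar-end numbers are counts and dashed lines mark all tested genes at 11.5% and 13.3%. Mitochondrial ribosomal proteins reach 42.5% on the left with 0 on the right, and zinc finger proteins reach 19.6% on the right.

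Lists of regulation and traffic were set beside the same shares, 13.3% of all genes above and 11.5% below both controls. Among zinc finger proteins, mostly putative DNA-binding regulators, 54 of 275 (19.6%) had all 3 Vibrio males above both controls. In 10 of 275 (3.64%) all 3 stood below, and the median was 0.13. Over the 116 members with at least 5 CPM the median was 0.03, beside -0.01 over all 8058 genes at that level. DESeq2 called 1 gene of the list, zinc finger protein 260-like. The most abundant (LOC113808513) had a log2 fold change of -0.30, SE 0.26, and the groups overlapped. Zinc finger protein 23-like (LOC113816537) had 8.51, 5.81 and 7.69 CPM in Vibrio males, against 3.85 and 4.59 CPM in control males (log2 fold change 0.80, SE 0.32, unadjusted p = 0.0305). For E3 ubiquitin ligases, which mark proteins for degradation or sorting, the count above was 27 of 129 (20.9%, median 0.15), and the count below 8 of 129 (6.2%). TRIP12-like (LOC113806763), the most abundant, had 88.8, 72.7 and 83.3 CPM in Vibrio males, against 68.8 and 55 CPM in control males (log2 fold change 0.40, SE 0.19, unadjusted p = 0.0594). For autophagy and vesicle traffic it was 28 of 138 (20.3%, median 0.06), and the count below 10 of 138 (7.25%). Its most abundant member, clathrin light chain (LOC113802921), of coated vesicles, had a log2 fold change of -0.41, SE 0.27, and the groups overlapped. Rab-4B-like (LOC113821139, 2 genes of that name), a GTPase of endosome recycling, had 9.51, 9.26 and 9.39 CPM in Vibrio males, against 4.98 and 5.07 CPM in control males (log2 fold change 0.90, SE 0.39, unadjusted p = 0.0446), with both controls nearly equal. Zinc finger protein 23-like, Rab-4B-like and the 2 genes that follow were named after their values were seen. In the DNA damage list, 10 of 60 (16.7%) stood above and 8 of 60 (13.3%) below both controls, near the shares of all genes. At an unadjusted edgeR p under 0.05, 5 of the 60 were higher and 1 was lower, against 0.797% and 1.62% of all genes. ERCC-6-like (LOC113807013), a factor of transcription-coupled repair, had 31.3, 30.5 and 39.1 CPM in Vibrio males, against 17.1 and 24.3 CPM in control males (log2 fold change 0.70, SE 0.28, unadjusted p = 0.0309). p53 and DNA damage-regulated protein 1-like (LOC113819906), a prefoldin-like protein, ran the other way with 13.1, 13.1 and 10.8 CPM in Vibrio males, against 29.4 and 18.6 CPM in control males (log2 fold change -0.96, SE 0.34, unadjusted p = 0.0173).

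Several list medians hung on 1 control library. Cytoplasmic ribosomal proteins had 77 of 85 members lower, with a median of -0.56. Yet only 3 of 85 (3.53%) had all Vibrio males below both controls, against 11.5% of all genes. Without control male 2 the median was 0.07, and without control male 3 it was -0.98. Summed levels of the list were 101171, 108303 and 100605 FPKM in Vibrio males, against 161484 and 100056 FPKM in control males. The most abundant member, 60S ribosomal protein L8-like (LOC113804304), had 2117, 2626 and 2362 CPM in Vibrio males, against 5161 and 2306 CPM in control males, so that control male 3 lay among the Vibrio males (log2 fold change -0.66, or 0.04 without control male 2). The proteasome, the protein-degrading complex, was -0.40 with both controls, -0.15 without control male 2 and -0.61 without control male 3. For the respiratory chain those values were -0.53, -0.14 and -0.85, and for mitochondrial ribosomal proteins -0.45, -0.15 and -0.69. Antioxidant enzymes moved less, with -0.39, -0.29 and -0.48, as did the lysosome and V-type ATPase list, with -0.32, -0.22 and -0.23. Zinc finger proteins stood at 0.13, 0.16 and 0.11 and ubiquitin ligases at 0.15, 0.09 and 0.24. Over all genes the medians were -0.03, 0.00 and 0.07. A fit without a control male leaves 1 library in that group, whose spread is then assumed to be that of the other groups.

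**Figure D5:**
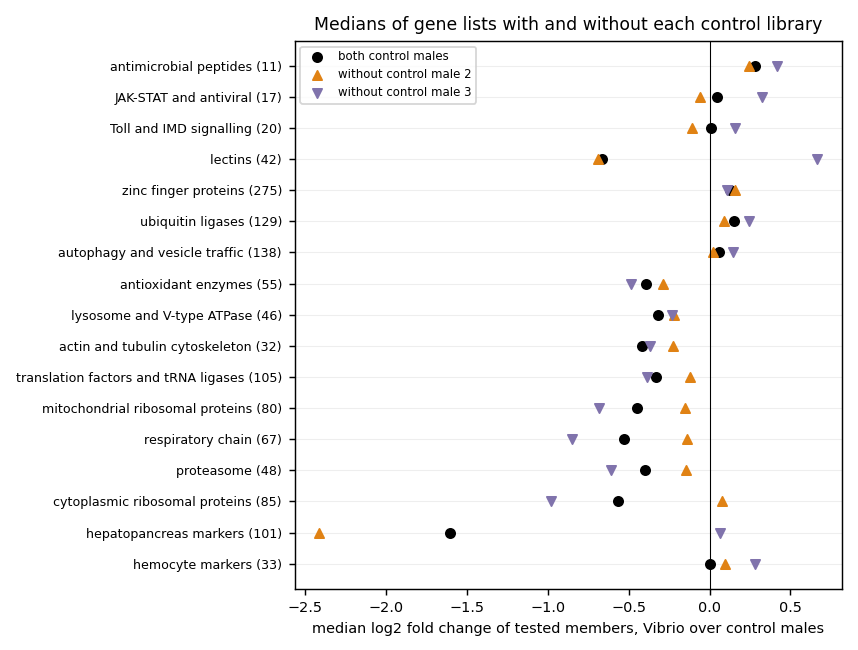
Points give the median log2 fold change of the tested members of each list, Vibrio over control males, with both control males (black), without control male 2 (orange) and without control male 3 (purple). Cytoplasmic ribosomal proteins sit at -0.56, 0.07 and -0.98, and hepatopancreas markers at -1.61, -2.41 and 0.06.

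Transcripts of the hepatopancreas set control male 3 apart, and those of other tissues did not all do so. Hepatopancreas markers had 79 of 101 tested members lower (median -1.61, or -1.60 with members absent from 1 group set at their bound). Without control male 3 the median was 0.06. Of the 101 members, 25 (24.8%) lay below both controls, against 11.5% of all genes. Hemocyanin (LOC113830072, 3 genes of that name), the oxygen carrier of hemolymph, had 4.03, 93.1 and 63.2 CPM in Vibrio males, against 138 and 515 CPM in control males. Hemocyanin subunit L1, partial (LOC113823617) had 2.89, 54.5 and 33.4 CPM in Vibrio males, against 146 and 697 CPM in control males (log2 fold change -3.80, SE 1.65, unadjusted p = 0.0441). Vibrio male 1 was lowest and control male 3 highest for each. In bulk RNA, fewer cells of a type and less RNA per cell cannot be told apart, and the part of these transcripts in the differences above was not tested. Digestive gland markers listed at 0 counts numbered 64, 42 and 49 of 134 in Vibrio males, against 58 and 24 in control males. Muscle markers summed to 1173, 1339 and 1227 FPKM in Vibrio males, against 1770 and 1204 FPKM in control males, with control male 2 highest. Myosin essential light chain (LOC113816642) alone had 881, 1114 and 933 FPKM in Vibrio males, against 1564 and 944 FPKM in control males. Of 73 muscle markers, 36, 40 and 41 had 0 counts in Vibrio males, against 39 and 19 in control males. Muscle markers split by level: over 15 members with at least 5 CPM the median was 0.22. Over all 37 tested it was -0.64, and -0.12 without control male 3. Myosin light chain alkali-like (LOC113822686), of muscle fibres, was named after its values were seen, as was hemocyanin L1; it had 0.775, 0.215 and 0.541 CPM in Vibrio males, against 3.33 and 2.67 CPM in control males (log2 fold change -2.55, SE 0.91, unadjusted p = 0.019). Cuticle markers summed to 26.5, 22.9 and 19.5 FPKM in Vibrio males, against 29.4 and 23.4 FPKM in control males, and gonad markers to 0.617, 1.25 and 0.982 FPKM in Vibrio males, against 0.408 and 2.52 FPKM in control males.

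Some genes had counts in 1 group only; apart from those that DESeq2 called and the chitinase, the ones given here were picked after their values were seen. In 37 of 18803 genes all 3 Vibrio males had 0 counts while both controls had at least 0.2 CPM. In 32 of the 37, control male 3 was above control male 2. In 10 of 18803 genes the reverse held, with 0 counts in both controls. The first rule needs 3 libraries at 0 and the second needs 2, so the 2 numbers are not comparable. A fold against a group at 0 is given as a bound, taking 3 counts over the group as the limit, and uses the mean of the other group; it covers counting error only. Since a count is not 1 independent fragment, the bounds are too high where a fragment gave several counts, by 2 times if each gave 2. Balbiani ring protein 3-like (LOC113816928), named after a secreted insect protein, had 0 counts in all Vibrio males, against 2.32 and 21.4 CPM in control males, at least 616-fold lower in Vibrio males (at least 120.3-fold against control male 2 alone), and DESeq2 called it with an adjusted p of 1.46e-05. Probable chitinase 10 (LOC113816518), on the same scaffold, had 0 counts in all Vibrio males, against 1.16 and 6.21 CPM in control males, at least 192-fold lower in Vibrio males (at least 60.2-fold against control male 2 alone). Peritrophin-1-like (LOC113811921), named for a chitin-binding protein of the insect gut lining, had 0 counts in all Vibrio males, against 1.71 and 3.03 CPM in control males, and was at least 123-fold lower in Vibrio males. TRPM8 channel-associated factor 3-like (LOC113823850) shared its scaffold with 2 uncharacterized genes of the same pattern, and had 0 counts in all Vibrio males, against 0.955 and 2.41 CPM in control males, at least 87.6-fold lower (at least 49.6-fold against control male 2 alone). On one scaffold, 3 genes named neurotrophin 1-like had 0 counts in all Vibrio males. LOC113822963 had 0.289 and 0.534 CPM in control males, LOC113822964 0.232 and 1.41 CPM in control males and LOC113822967 0.203 and 0.495 CPM in control males. Against control male 2, the lower control, they were at least 15, 12 and 10.5-fold lower in Vibrio males. On the other side, zinc finger protein 260-like (LOC113820390, 5 genes of that name) had 4.03, 3.3 and 6.42 CPM in Vibrio males, at least 129.9-fold higher than in control males, which had 0 counts; DESeq2 called it, with an adjusted p of 0.00115. All 37 and all 10 of these genes had a count in at least 1 female library, from either condition. Balbiani ring protein 3-like had 1.88, 1.23 and 0 CPM in Vibrio females, against 0.143, 0.148 and 0.111 CPM in control females. Probable chitinase 10 had 1.27, 0.146 and 0 CPM in Vibrio females and 0 counts in control females. Neurotrophin 1-like LOC113822964 was on average lower with Vibrio in females, as in males, though all its female values were near 0. It had 0, 0 and 0.0547 CPM in Vibrio females, against 0.225, 0 and 0.2 CPM in control females. Zinc finger protein 260-like had 2.43, 3.1 and 3.75 CPM in Vibrio females, against 4.11, 4.29 and 0 CPM in control females.

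DESeq2 called 7 genes besides eukaryotic translation initiation factor 4 gamma 1-like, perlucin-like protein, balbiani ring protein 3-like and zinc finger protein 260-like. They were TRPM8 channel-associated factor 3-like (LOC113823850), LOC113825608, LOC113806465, LOC113807602, serine-rich adhesin for platelets-like (LOC113803232), N-acetylated-alpha-linked acidic dipeptidase (LOC113808167) and nascent polypeptide-associated complex subunit alpha, muscle-specific form-like (LOC113811675). Each had 0 counts in at least 3 of the 5 male libraries, and their edgeR unadjusted p ran from 0.0021 to 0.32.

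Whether these effects differed from those in females was tested as the male effect minus the female effect in the same fit. The edgeR test called 0 of 14295 genes (0%), and no adjusted p lay below 0.74. At an unadjusted p under 0.05 there were 800 of 14295 genes, a share close to the threshold itself. DESeq2 made 28 calls among 14183 genes (0.197%). Among the 12 named genes higher in males, 6 had the opposite sign in females and 8 had an unadjusted p under 0.05 for the difference. Among the 12 lower, the numbers were 9 and 10. Having been chosen for their male values, they are no independent sign of a difference. Pyruvate kinase-like (LOC113828822) had a log2 fold change of -0.79 in males and 1.05 in females (difference -1.84, SE 0.36, unadjusted p = 0.00045, edgeR adjusted p = 0.74). Eukaryotic translation initiation factor 4 gamma 1-like (LOC113823483) had 1.59 in males and -0.65 in females (difference 2.24, SE 0.46, unadjusted p = 0.000621). Ferritin subunit-like (LOC113830150) stood at -0.97 in males and 0.04 in females. List medians in females, given as values, were 0.14 for mitochondrial ribosomal proteins, 0.28 for the respiratory chain, 0.26 for antioxidant enzymes, -0.16 for zinc finger proteins and -0.03 for ubiquitin ligases, beside 0.05 over all genes.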

How the data were processed

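The authors deposited, in one table, a whole-number count and an FPKM value (fragments scaled by gene length and library size) for each of 18803 genes in each of the 11 libraries. FastQC and cutadapt 1.9 were used, per the submitters' processing notes. The aligner, counting program, genome build and strandedness: not given in the sources used here. Deposited count columns were taken as raw, since each library sums to a different total, and the FPKM of the authors served for levels only. Names come from the deposited table (12607 descriptive), and 12909 identifiers matched the RefSeq table. A name can belong to several genes even where no number is given beside it. Such names include lysozyme C-like, phospholipase D alpha 1-like and prefoldin subunit 5-like (2 genes each). Others are exonuclease 3'-5' domain-containing protein 2-like (4 genes) and gastrula zinc finger protein XlCGF8.2DB-like (13 genes). No sequence is printed.

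The main test was edgeR 4.0.16 (R 4.3.3), a robust quasi-likelihood model with 4 group means over all 11 libraries, because only 2 control males are used. It covered 14295 genes after filterByExpr, with TMM scaling, two-sided p-values and Benjamini-Hochberg adjustment over all genes (threshold 0.05). The SE given is the absolute log2 fold change over the root of F. The sex contrast is the male effect minus the female effect. Alternatives were DESeq2 1.42.0, limma 3.58.1 voom with quality weights, RLE scaling, 2 filters, the males alone, a replicate block and leaving out each library. No set test was run: 39 gene lists, matched on gene names, were described by counts and medians.

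Named genes were drawn from the 12 of smallest unadjusted p in each direction with a descriptive name, at least 5 FPKM in the group where they were higher, and no overlap; the most abundant and the smallest-p member of each list; genes called by DESeq2; and the 8 most abundant genes. A further 37, and the neurotrophin genes, were picked after their values were seen. Members and lists were chosen with earlier results of these data known. Bounds and floors cover counting error only.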

Additional observations from a re-analysis of the deposited data

How the results depend on the processing

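Between Vibrio and control males, 0 calls were made by edgeR under RLE scaling, both filters, the male libraries alone and the replicate block, 0 by limma voom, and 11 by DESeq2. Leaving out 1 library gave 0 to 1 calls. Those calls were LOC113820390 without control female 3, LOC113819004 without control male 3 and LOC113808903 without Vibrio female 1. Genes at an unadjusted p under 0.05 numbered 345, against 524 with DESeq2, 758 with limma voom and 842 with the male libraries alone, and 169 (without Vibrio male 1) to 829 (without control male 3) when 1 library was left out. It was 209 without Vibrio male 3 and 641 without Vibrio female 3. For the male minus female effect there were 0 calls, 28 with DESeq2 and 0 to 1 with 1 library left out. The 800 genes at an unadjusted p under 0.05 became 1696 with limma voom, and 381 (without control female 1) to 2306 (without Vibrio female 3) with 1 library left out.

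Genes above both controls numbered 1902, and 2427 to 4367 with 1 male library left out; genes below both numbered 1638, and 2099 to 4629. Fewer libraries make non-overlap easier to reach.

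Of 140 named genes, 25 changed the sign of their log2 fold change when 1 control was left out, 11 without control male 2 and 14 without control male 3, and 14 did so when 1 Vibrio male was left out. None of the 24 genes chosen by p and non-overlap was among them. Non-overlap nearly fixes this in advance, since the groups stay apart when 1 library is left out. Of the genes named for more than their abundance, 5 changed sign without a control. Without control male 3, hemocyte transglutaminase-like LOC113823934 stood at -0.17 (0.28 with all libraries, highest 0.95 with 1 left out) and heat shock protein beta-1-like LOC113805750 at 0.45 (-2.99, lowest -3.91). 60S ribosomal protein L12-like LOC113810192 stood there at 0.13 (-2.01, lowest -2.83) and vitellogenin LOC113804022 at 7.51 (-0.71, lowest -8.22). Without control male 2, crustacean hematopoietic factor-like protein LOC113802754 stood at 0.032 (-0.47, lowest -0.83). The cause was not tested. With the replicate number as a block, vitellogenin stood at 3.13 and 282 genes had an unadjusted p under 0.05. In deviations from group means, same-numbered libraries correlated by -0.574 to 0.498 (15 pairs) and others by -0.498 to 0.479 (30 pairs). Small groups force such values to mirror each other, so the check cannot tell whether the numbers pair the samples. Counting a list once for each alternative setting it was compared in, 277 list medians moved by less than the spread and 74 by more. Named genes with no counts left in either group gave no value. At this depth 3 counts, the limit taken for a count of 0, equal 0.0567 to 0.0868 CPM in 1 library. A count is not 1 independent fragment, so this limit too covers counting error only.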

Other observations

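Lists not described so far were given as medians of the log2 fold change, Vibrio over control males, beside -0.03 over all genes. Over all genes 13.3% lay above and 11.5% below both controls, and no member of these lists passed the edgeR test. Splicing factors stood at 0.04 (14 above and 13 below both controls, of 85 tested), nuclear receptor and ecdysone genes at 0.08 (4 above and 3 below both controls, of 31 tested), and mediator and RNA polymerase II genes at -0.11 (5 above and 13 below both controls, of 66 tested). Caspase and apoptosis genes stood at -0.19 (4 above and 3 below both controls, of 25 tested) and amino acid and nutrient transporters at -0.02 (15 above and 8 below both controls, of 98 tested).

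Iron-binding genes stood at -0.48 (1 above and 2 below both controls, of 7 tested), heat shock proteins and chaperones at -0.18 (4 above and 10 below both controls, of 63 tested), ER folding genes at -0.06 (0 above and 2 below both controls, of 26 tested) and glycolysis at -0.16 (2 above and 1 below both controls, of 22 tested). Histones stood at -0.02 (0 above and 1 below both controls, of 12 tested). Adhesion and phagocytosis genes stood at 0.02 (3 above and 2 below both controls, of 32 tested), pattern recognition proteins at -0.21 (0 above and 1 below both controls, of 14 tested), protease inhibitors at -0.34 (1 above and 1 below both controls, of 13 tested), clotting genes at 0.16 (1 above and 0 below both controls, of 7 tested) and lysozymes at -0.29 (0 above and 1 below both controls, of 4 tested). Nervous system markers stood at 0.23 (2 above and 0 below both controls, of 27 tested) and cuticle markers at -1.09 (0 above and 6 below both controls, of 28 tested). Protease inhibitors and pattern recognition proteins had medians of 0.32 and 0.00 without control male 3.

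The most abundant members and those of smallest p in these lists were as follows. Heat shock cognate 70 kDa protein (LOC113817372), a chaperone, had 1402, 1619.8 and 1967 CPM in Vibrio males, against 1151 and 2851 CPM in control males (log2 fold change -0.27, SE 0.35, or 0.53 without control male 3). Fructose-bisphosphate aldolase (LOC113808337), of glycolysis, had 2666, 3255 and 3274 CPM in Vibrio males, against 2817 and 5115 CPM in control males (log2 fold change -0.37, SE 0.31, or 0.13 without control male 3). Caspase-1-like (LOC113805238, 7 genes of that name), a protease of cell death, had 195, 239 and 181 CPM in Vibrio males, against 131 and 169 CPM in control males (log2 fold change 0.45, SE 0.31, unadjusted p = 0.176), above both controls in all 3 Vibrio males. Histone H2A-like (LOC113829109) had 9.34, 15.2 and 9.97 CPM in Vibrio males, against 24.5 and 19.6 CPM in control males (log2 fold change -0.94, SE 0.35, unadjusted p = 0.0214), below both. The broad-complex core protein LOC113824746, an ecdysone-response factor in flies, had 132, 118 and 120.3 CPM in Vibrio males, against 93.6 and 89.6 CPM in control males (log2 fold change 0.43, SE 0.22, unadjusted p = 0.0729).

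Among genes absent from 1 group, uncharacterized LOC113808903 had 0 counts in all Vibrio males, against 9.26 and 8.67 CPM in control males, at least 466-fold lower. In females the same gene had 0, 12 and 10.2 CPM with Vibrio and 0 in all 3 controls. The gene named coiled-coil domain-containing protein 58-like (LOC113825480) had 6.35, 9.15 and 5.99 CPM in Vibrio males, at least 203-fold higher than in control males, which had 0 counts. Among females it had 10.4 CPM in Vibrio female 2 and 6.86 CPM in control female 3, with 0 counts in the other 4. Both genes were picked after their values were seen.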
